A study of Homo sapiens with 2 samples.

Results

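CMIP, the gene on chromosome 16 that encodes c-Maf-inducing protein, was examined for the DNA regions found with a DEK antibody in the renal carcinoma line 786-O. It was chosen by its density of DEK regions in earlier results of these data, so its number of regions, their spacing and their strength are given as descriptions, with no test. The members were the DEK peaks that overlapped the RefSeq gene (GRCh38, chromosome 16, 81444808 to 81711762, plus strand, 267 kb) or the 100 kb on each side. They numbered 25 of the 19128 deposited peaks in replicate 1 and 32 of the 24580 in replicate 2. A peak of replicate 1 and a peak of replicate 2 with 1 bp or more in common formed a shared region, and the window held 21 of the 12590 shared regions. Of these, 19 had their summit inside CMIP, 1 lay upstream and 1 downstream.

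The study measured DEK occupancy by chromatin immunoprecipitation and sequencing (ChIP-seq) in 1 group of 2 libraries. The labels give the cells as wild type (WT) and negative control, the library names carry Cas9, the antibody is DEK, and no treatment or time is labelled. They do not say whether negative control means the cells or the precipitation, nor whether the replicates came from separate cultures. No DEK-deficient, input or other-antibody library was analysed here, and the sources used here do not name a control library for peak calling. The spread between replicates may therefore be technical.

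DEK is an abundant nuclear protein that binds DNA and histones and alters chromatin structure. CMIP is a signalling adaptor named for its link to the transcription factor MAF in T cells. In the kidney it has been studied in podocytes, the filtering cells of the glomerulus, where it contacts the kinase FYN. Common variants near the gene have also been linked to language ability. No expression measurement was analysed here.

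CMIP has 2 annotated starts in the RefSeq promoter table, 50.5 kb apart, and an RNA gene on the opposite strand inside it, LOC105371362, has 2 more. Another RNA gene inside CMIP, LOC100129617 on the plus strand, starts at 81665354. The promoter windows, 250 bases before to 50 after a start, are shown because both CMIP windows were free of peaks while a LOC105371362 window was covered by peaks of both libraries. They are printed 5′ to 3′ on the strand of the gene, from RefSeq on GRCh38.p14, with each CpG (C followed by G) in capitals.
CMIP first start, chr16:81444558-81444857, plus strand: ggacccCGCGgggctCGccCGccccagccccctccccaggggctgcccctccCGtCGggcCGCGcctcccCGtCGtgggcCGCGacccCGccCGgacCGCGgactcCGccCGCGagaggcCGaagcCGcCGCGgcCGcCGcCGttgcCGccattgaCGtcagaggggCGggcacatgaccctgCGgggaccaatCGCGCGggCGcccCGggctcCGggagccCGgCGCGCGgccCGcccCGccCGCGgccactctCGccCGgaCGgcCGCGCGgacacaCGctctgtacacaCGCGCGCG
CMIP second start, chr16:81495104-81495403, plus strand: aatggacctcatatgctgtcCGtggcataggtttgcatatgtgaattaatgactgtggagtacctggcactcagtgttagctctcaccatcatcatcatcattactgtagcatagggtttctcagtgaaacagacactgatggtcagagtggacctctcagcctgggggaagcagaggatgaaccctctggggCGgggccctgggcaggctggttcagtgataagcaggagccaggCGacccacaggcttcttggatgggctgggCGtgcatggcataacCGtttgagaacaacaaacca
LOC105371362 inner start, chr16:81632317-81632616, minus strand: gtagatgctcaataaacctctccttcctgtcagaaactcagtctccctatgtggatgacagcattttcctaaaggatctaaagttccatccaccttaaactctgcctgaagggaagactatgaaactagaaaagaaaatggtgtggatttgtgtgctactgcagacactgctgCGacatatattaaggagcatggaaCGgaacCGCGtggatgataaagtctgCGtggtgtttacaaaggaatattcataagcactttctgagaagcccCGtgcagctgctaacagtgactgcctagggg
The first start of CMIP had 55 CpGs and a GC content of 82.7%, and only 0.375% of the 34961 promoter windows had as many CpGs. The second start had 5 CpGs at 52.7% GC and the LOC105371362 window 6 at 45.0%, against a median window of 14 CpGs and 58.7% GC.

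No peak of either library overlapped a CMIP promoter window. The closest peaks to the first start were in replicate 2 alone, the nearest with its summit 3.42 kb inside the gene, and the nearest in replicate 1 lay 13.1 kb inside. The nearest shared region lay 18.1 kb from the first start and 1.67 kb upstream of the second. The inner start of LOC105371362 lay wholly within region 16 (81631579 to 81633058), and the peaks of both libraries covered all 300 bases of its window. The replicate 1 summit fell inside the window, at 81632556, and the replicate 2 summit outside it, at 81632926. The outer start of the same gene had no peak, and its nearest shared summit was 2.69 kb away. The start of LOC100129617 had no peak in either library either, and its nearest shared summit was 19.9 kb away. Among all promoter windows 3.08% overlapped a shared region. That share was 3.89% of windows with at least 14 CpGs and 2.25% of windows with fewer, but it was 0 of the 453 windows with at least 50. With 3 taken as an approximate 95% upper limit for a count of 0, this allows a share of up to 0.662%. That limit treats the windows as independent. The first start of CMIP belongs to the windows with at least 50 CpGs, and whether reads from such sequence were recovered in these libraries was not tested.

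**Figure D1:**
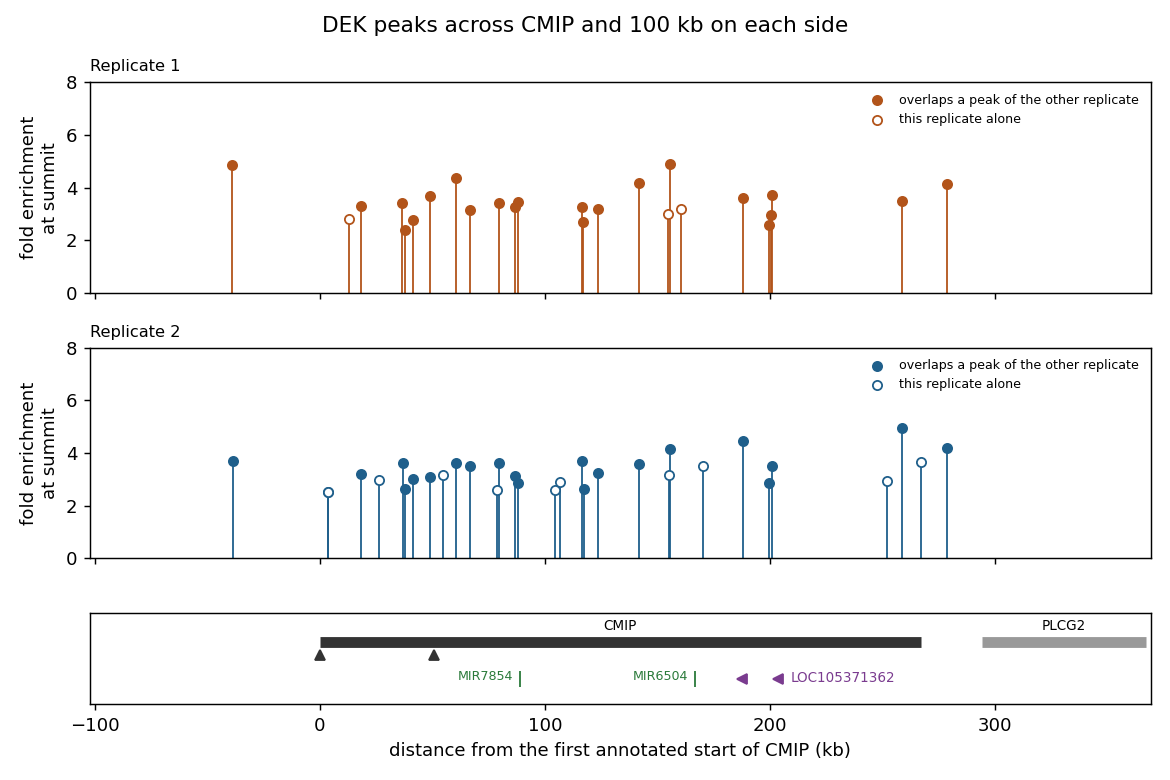
Each stem is a DEK peak, placed by its summit in kb from the first annotated start of CMIP, with the authors' fold enrichment at the summit as its height, for replicate 1 (top) and replicate 2 (middle). Filled points overlap a peak of the other replicate and open points do not; the lowest strip shows CMIP and PLCG2 as bars, CMIP starts as upward triangles, LOC105371362 starts as leftward triangles and the microRNA genes inside CMIP as ticks. The stems crowd between 0 and about 200 kb and are sparse in both flanks.

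The 19 shared regions were numbered along the gene, and their summits are given as the midpoint of the summits of both libraries. The authors' fold enrichment is a linear ratio of the pileup of fragments at the summit to a local background within 1 library. Before the second start lay regions 1 to 5. Region 1 had its summit at 81462938, with a fold enrichment of 3.30 in replicate 1 and 3.21 in replicate 2. Regions 2, 3 and 4 formed a cluster of 4.54 kb. Region 2 (summit 81481537) had 3.40 in replicate 1 and 3.63 in replicate 2, region 3 (81482746) had 2.40 and 2.62, and region 4 (81486072) had 2.78 and 3.005. Region 3 had the lowest fold enrichment of the 19 in both libraries. Region 5 (81493680) had 3.70 in replicate 1 and 3.10 in replicate 2.

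Past the second start the spacing was irregular, with gaps of 11.5, 6.3, 12.9 and 7.2 kb from region 5 to region 9. Region 6 (81505216) had a fold enrichment of 4.38 in replicate 1 and 3.61 in replicate 2, region 7 (81511482) had 3.14 and 3.52, and region 8 (81524370) had 3.41 and 3.62. Regions 9 and 10 lay 1.23 kb apart. Region 9 (81531605) had 3.26 in replicate 1 and 3.12 in replicate 2, and region 10 (81532837) had 3.48 and 2.87. The microRNA gene MIR7854 began 823 bp beyond region 10, the closest of the 2 microRNA genes inside CMIP to a shared region. Its mature product is printed with the seed, bases 2 to 8, in capitals, to show which transcript lies beside the region.
hsa-miR-7854-3p: uGAGGUGAccgcagaugggaa
MIR6504 lay 10.7 kb from its nearest shared region, region 15, and 3.71 kb from a peak of replicate 2 alone.

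Regions 11 and 12 were the closest pair, with summits 0.757 kb apart. Region 11 (81561165) had a fold enrichment of 3.28 in replicate 1 and 3.68 in replicate 2, and region 12 (81561922) had 2.71 and 2.63. Region 13 (81568471) had 3.20 in replicate 1 and 3.23 in replicate 2, the closest agreement of the 19. Region 14 (81586607) had 4.18 and 3.59. Region 15 (81600405; 81600214 to 81600683) had the highest mean, 4.53 ± 0.541 (SD, n = 2), from 4.92 in replicate 1 and 4.15 in replicate 2.

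Regions 16, 17 and 18 lay inside LOC105371362 as well, which is a long non-coding RNA gene. Region 16 (81632741), at its inner start, was the widest of the 19 at 1480 bp, with a fold enrichment of 3.63 in replicate 1 and 4.47 in replicate 2. Regions 17 and 18 lay 1.07 kb apart. Region 17 (81644398) had 2.60 in replicate 1 and 2.88 in replicate 2, and region 18 (81645470) had 3.71 and 3.52. The longest gap in the gene followed, 58.1 kb without a shared region. Region 19 (81703529), 8.23 kb before the end of the gene, had 3.51 in replicate 1 and 4.95 in replicate 2. It was the region on which the replicates differed most, by 0.50 on the log2 scale.

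Occupancy was uneven along the gene. The first 100 kb held 10 shared regions, the next 100 kb held 7, and the remaining 67.0 kb held 2. Between the starts the density was 9.89 per 100 kb, against 6.47 in the 216 kb after the second start. Of the 18 gaps between neighbouring summits, 4 were under 2 kb and 3 were over 20 kb, and the median was 9.57 kb. Neighbouring summits were 48.3 kb apart at the median over chromosome 16 and 58.3 kb over all chromosomes. The regions covered 10265 bp, 3.85% of the gene. CMIP held 3.28% of the 579 shared regions of chromosome 16.

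The replicates shared most of their peaks in CMIP. Of the peaks of replicate 1 that overlapped the gene, 20 of 23 overlapped a peak of replicate 2 (87.0%, 95% Wilson interval 67.9 to 95.5), against 67.8% of all peaks of that library. Of the peaks of replicate 2, 19 of 30 were shared (63.3%, 45.5 to 78.1), against 52.2% of all its peaks. The intervals cover counting error only, and since the gene was chosen with these shared peaks in view, nothing is read from the difference. Where −log10 q was at least the library median, all 14 such peaks of replicate 1 and 15 of 18 of replicate 2 were shared. Below the median, 6 of 9 and 4 of 12 were shared. Over the libraries those shares were 83.2% and 70.3% above the median and 52.3% and 34.2% below it.

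The peaks seen in 1 replicate alone had lower pileups at the median, but the ranges overlapped. In replicate 1 the 3 such peaks had summit pileups of 21 to 27 fragments (median 25), against 19 to 51 (median 34) for its shared peaks in the gene. In replicate 2 the 11 such peaks had pileups of 16 to 35 (median 21), against 21 to 58 (median 38). A pair of them, 1 from each library near 155 kb from the first start, lay 64 bp apart and so missed the overlap rule. Another, in replicate 2 alone at 81711689 to 81711903, spanned the end of the gene with a fold enrichment of 3.66, and its summit fell just outside the gene. Where regions were shared, the replicate summits were 46 bp apart at the median (3 to 370 bp), and 13 of 19 lay within 100 bp. The median over all shared regions was 69 bp, with 64.6% within 100 bp. The fold enrichment was higher in replicate 1 in 9 of the 19 regions, and the median absolute log2 ratio between replicates was 0.15, against 0.17 over all shared regions.

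**Figure D2:**
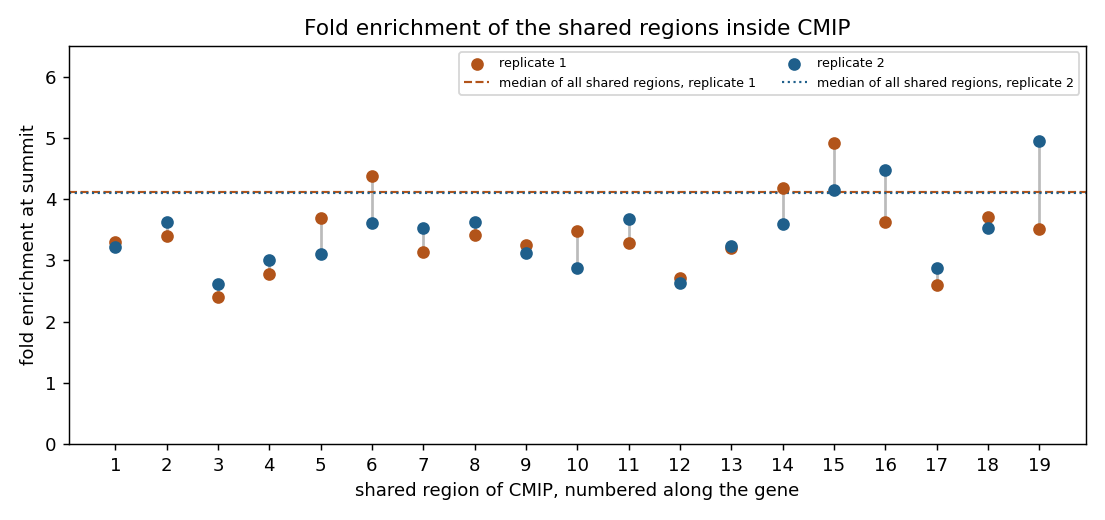
Fold enrichment at the summit (linear ratio) of the 19 shared regions inside CMIP, numbered along the gene, in replicate 1 and replicate 2, with a grey line joining the values of a region and horizontal lines at the median of all shared regions of each library. Most points lie below those medians, 4.11 and 4.10, and only regions 6, 14, 15, 16 and 19 reach them in a library.

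The regions of CMIP were many but individually modest in fold enrichment, and none was left when both peaks had to reach 5-fold. The highest values in CMIP, 4.92 in replicate 1 and 4.95 in replicate 2, lay at percentiles 79.4 and 80.0 of all shared regions. Most shared regions of the series thus also lay below 5-fold in each library. The median fold enrichment of the CMIP regions was 3.40 in replicate 1 and 3.52 in replicate 2, against 4.11 and 4.10 over all shared regions. In each library 16 of the 19 lay below the median of all shared regions. The pileups went the other way. The summit pileup, a whole number of fragments solved from the deposited fold enrichment and p-value, was 19 to 51 in replicate 1 (median 35) and 21 to 58 in replicate 2 (median 38). Over all shared regions the medians were 21 and 22, and 18 of the 19 CMIP regions exceeded them in each library.

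The local background was high at the shared regions of CMIP, and it was known only at peak summits. Expressed over the lowest background of the same library, its median at the 19 regions was 4.75 in replicate 1 and 4.71 in replicate 2, against 2.18 and 2.16 over all shared regions. All 19 exceeded those medians in both libraries. It was highest at regions 2, 3 and 4, at 7.40, 7.89 and 7.69 in replicate 1 and 7.29, 7.55 and 7.64 in replicate 2. It was lowest at region 1, with 2.62 and 2.80. The upstream region had 2.47 in replicate 1 and 2.24 in replicate 2, and the downstream region 1.99 and 2.14, both close to the median of all regions. A high background lowers the fold enrichment that a given pileup yields. DNA copy number, which differs between segments in carcinoma lines, was not measured, and its part in the background was not tested.

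**Figure D3:**
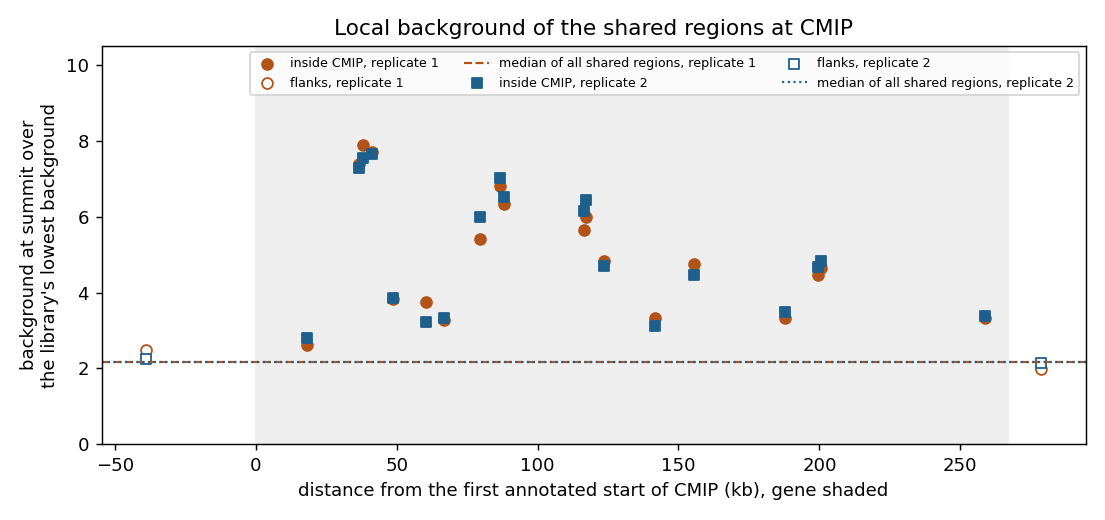
Background at the summit divided by the lowest background of the same library, for the shared regions inside CMIP (filled) and in its flanks (open), against the distance from the first annotated start in kb, in replicate 1 (circles) and replicate 2 (squares); the gene is shaded and lines mark the medians of all shared regions. All filled points lie above the lines, the highest near 40 kb, and both flank regions lie close to them.

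The background was higher where regions were clustered. The 9 CMIP regions with another shared region within 5 kb had medians of 6.34 in replicate 1 and 6.52 in replicate 2, against 3.54 and 3.43 for the other 10. The other 10 still ranged from 2.62 to 5.41 in replicate 1 and from 2.80 to 5.99 in replicate 2, above the medians of all shared regions. Among all shared regions 16.03% had such a neighbour, with medians of 3.43 and 3.44, against 2.03 and 2.01 for those without. Whether neighbouring regions raise each other's background was not tested. The regions that stood alone had the higher fold enrichment in CMIP, with medians of 3.57 and 3.60 in replicates 1 and 2, against 3.26 and 3.005 in the clustered ones.

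The flanks contrasted with the gene. CMIP had 7.12 shared regions per 100 kb, and the 200 kb of flanks had 1.00 per 100 kb, a ratio of 7.12 that rests on 2 flank regions and was 3.56 with flanks of 50 kb and 14.2 with flanks of 200 kb. The upstream region (81405787 to 81406235) lay 38.8 kb before the first start, with a fold enrichment of 4.85 in replicate 1 and 3.69 in replicate 2. The downstream region (81723193 to 81723519) lay 11.6 kb past the end of CMIP, with 4.13 in replicate 1 and 4.21 in replicate 2. The other peak of the window with its summit outside the gene was the replicate 2 peak across the end of CMIP. Beyond the window the next shared region was 263 kb upstream (81181242 to 81181559; 4.59 and 3.56) and 323 kb downstream (82034873 to 82035287; 4.24 and 4.67). The downstream one overlaps the lower end of HSD17B2, a steroid dehydrogenase gene.

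Of the other protein-coding genes within 1 Mb of CMIP 13 were analysed here, and 11 of them held no shared region. These were, upstream, BCO1, a carotene-cleaving enzyme, GCSH, C16orf46, ATMIN, CENPN, CDYL2 and DYNLRB2, and downstream PLCG2, SDR42E1, HSD17B2 and MPHOSPH6. PLCG2, a phospholipase gene of immune signalling that is the nearest gene downstream and 224 kb long, had 0 peaks in replicate 1 and 1 in replicate 2. CDYL2, a chromodomain gene of 207 kb, had none in either library. The exceptions were CMC2 with 1 shared region and CDH13, the T-cadherin gene, with 3 in 1174 kb, a density of 0.26 per 100 kb. The neighbours, each counted over its full length, together had 4 shared regions in 1891 kb, 0.21 per 100 kb. CMIP was 33.6 times as dense. Counted from the peaks of a single library the ratio was 27.2 in replicate 1 and 20.5 in replicate 2. CDH13 gave most of that length and of the regions, and it starts 915 kb past CMIP and runs on to 83800640, beyond the 1 Mb. With neighbours within 500 kb, which leaves out CDH13, the ratio from shared regions was 35.6, but it rests on the 1 region of CMC2. A gene was counted here by summits inside it. HSD17B2 was thus counted as without a region although a shared region overlaps its lower coordinate, 82035253. The 2 of 13 neighbours with a region stand against 20.2% of all protein-coding genes. With regions within 1 kb of an end counted too, 3 of the 13 had a region, against 24.0% of all. The neighbours of at least 100 kb were CDYL2, PLCG2 and CDH13, and of all 3351 genes of that length 44.9% held at least 1 shared region. At the other genes a missing region means only that no overlapping peaks with a summit inside passed the authors' threshold at this depth.

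**Figure D4:**
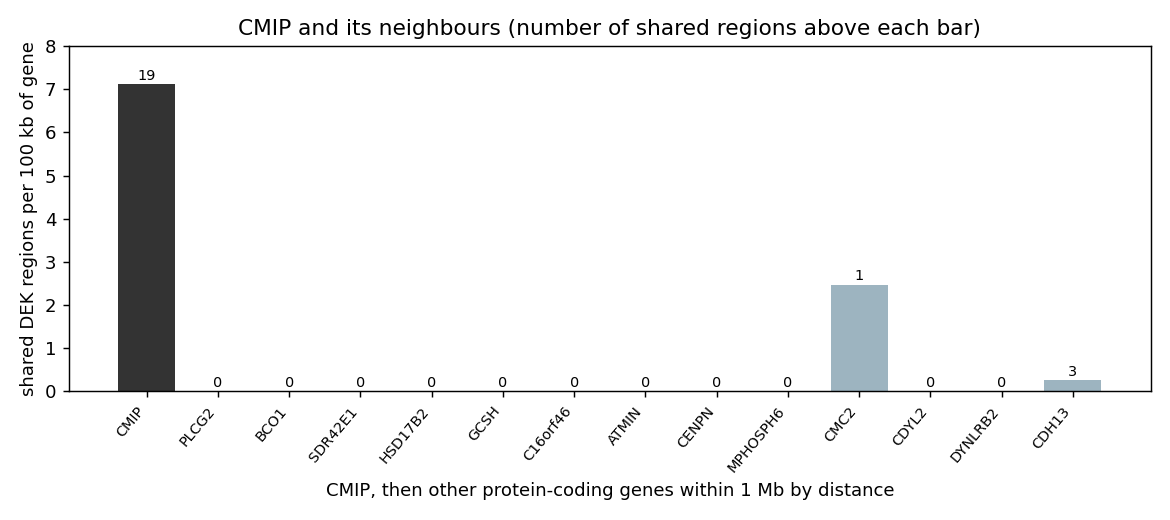
Shared DEK regions per 100 kb of gene for CMIP (leftmost) and the 13 other protein-coding genes analysed within 1 Mb, in order of distance, with the number of shared regions above each bar. CMIP stands at 7.12 per 100 kb, CMC2 at 2.47 with a single region and CDH13 at 0.26, and the other genes at 0.

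No other protein-coding gene held as many shared regions. CMIP ranked 1 of 19974 by number, with 19, followed by SEPTIN9, a septin cytoskeleton gene, and KCNMA1, a potassium channel gene of 768 kb, with 15 each. By density it ranked 5 of the 3351 genes of at least 100 kb and 1 of the 79 on chromosome 16, where ABCC1, a drug efflux transporter gene, came next with 9 shared regions and 4.64 per 100 kb. The genes above it in density were shorter: COL18A1, a collagen gene of 109 kb (9.21 per 100 kb), RXRA, a nuclear receptor gene (8.76), SHB, an adaptor gene (7.83), and ERGIC1 (7.60), with 9 to 12 shared regions each. These genes differ from CMIP by few regions per 100 kb. From the peaks of replicate 1 alone and replicate 2 alone, the density in CMIP was 8.62 and 10.9. By the same count COL18A1 had 9.21 and 10.1, RXRA 11.4 and 9.64, SHB 10.4 and 10.4, and ERGIC1 9.29 and 14.4. All of them exceeded CMIP in replicate 1 but only ERGIC1 did in replicate 2, so the order among them is not resolved. Among 613 genes of similar length, 214 to 333 kb, the median was 1 shared region. Of the 5 genes nearest to it in length, CCBE1 had 3 and FRY, CACNB4, LOC124904304 and TG had 0.

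The 5 genes most like CMIP in density were ARHGAP35, COL18A1, SEPTIN9, SHB and RXRA, by the absolute difference of the mean density of peaks in 2 libraries (0.02 to 0.77 peaks per 100 kb). They also had low fold enrichment and high background. In SHB, for example, the median fold enrichment was 3.44 in replicate 1 and 3.41 in replicate 2, and the background over the lowest of the library 4.93 and 5.09. In SEPTIN9 the fold enrichment was 3.50 and 3.28 and the background 5.59 and 5.70. COL18A1 had the lowest background of the 5 at 3.06 in both libraries, still above the medians of all shared regions.

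**Figure D5:**
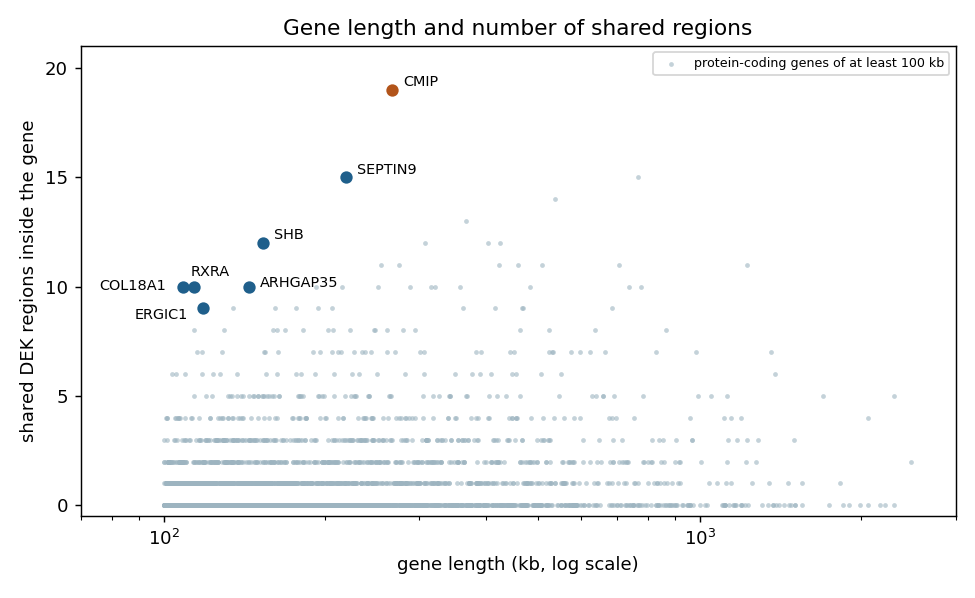
Number of shared DEK regions inside each protein-coding gene of at least 100 kb against its length in kb (log axis); each point is a gene. CMIP (19 regions, 267 kb) is the highest point, and the labelled blue points are the other genes named for density, with 9 to 15 regions.

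Genes tied to CMIP by name, protein contact or a shared linkage region were looked up as well. Of 9 such genes 2 had a region inside or within 1 kb of an end, against 24.0% of all protein-coding genes. So few genes cannot show whether the list differs from other genes. The 2 were the longest of the list, MAF with 398 kb and FYN with 213 kb. Of all genes of at least 100 kb, 44.9% held a shared region. MAF, the transcription factor that gave CMIP its name and which lies on the same chromosome, had 1 shared region (79484148 to 79484543) with a fold enrichment of 5.15 in replicate 1 and 4.30 in replicate 2. FYN, a Src-family kinase gene, had 1 with 3.59 in replicate 1 and 3.53 in replicate 2. FLNA, which encodes the actin-binding filamin A, had 2 peaks in replicate 1 and 0 in replicate 2, and PIK3R1, the regulatory subunit of PI3-kinase, had 0 and 1. RELA, LCK, WAS, NPHS1 and ATP2C2 had no peak summit inside the gene in either library.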

How the data were processed

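DEK ChIP-seq of 786-O cells was analysed from the deposited peak lists, 1 per library, called separately per library as the peak names show. Per the submitters' processing notes the build was GRCh38 and the tools named, without roles, include the peak caller MACS2 2.2.7.1, the aligner Bowtie2 2.2.5 and the trimmer cutadapt 1.18. The fold enrichment of a peak is the authors' ratio at the summit, and its deposited −log10 p and −log10 q refer to that summit. The deposited score repeats −log10 q and was not used. The last column gives the summit offset from the peak start.

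Peaks on chromosomes 1 to 22 and X were kept, which left out 113 and 123. Peaks overlapping by at least 1 bp were joined, each region took its strongest peak per library, and its summit was the midpoint of those summits. A region belonged to a gene if its summit lay inside it. The summit pileup and background were solved from the Poisson p and the fold enrichment, with 1 added to both terms of the ratio. A whole number met the p within a relative tolerance of 5e-05 for all 57 peaks at CMIP. The pileup of 19 to 58 fragments at a shared region limits the precision of a single fold enrichment. The joining and the solving were tested on simulated data. Gene positions came from a RefSeq table of GRCh38.p14 and promoter and microRNA sequences from RefSeq tables of the same build. Exons, introns and UTRs were not used here, since no transcript table was at hand.

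The members and lists were chosen with earlier results of these data known. Named genes were CMIP, the protein-coding genes within 1 Mb, the list of 9 genes tied to CMIP, the 5 densest genes of at least 100 kb, and the 5 nearest to CMIP in density and in length. A neighbouring gene is not reported here. ABCC1 and KCNMA1 were named after their values were seen. The rule used the same peaks as the counts, so no test was run. Python 3.11.15, pandas 2.3.3, scipy 1.17.1 and statsmodels 0.14.6 were used.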

Additional observations from a re-analysis of the deposited data

How the results depend on the processing

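Each value was recomputed with a choice changed at a time. For most values a move was judged against the SD of the values from each replicate alone. For the fold enrichment it was the SD of the replicate medians at the shared regions, and for the shares the 95% Wilson interval. The number of regions was judged by a fixed limit on its ratio to the main number, not by an SD. By these limits 25 values stayed the same and 38 moved, and no ratio of density fell below 1. With 50% reciprocal overlap CMIP kept 15 shared regions, its density percentile among long genes was 99.8 in place of 99.9, the share of replicate 1 peaks was 65.2%, and the ratio to the flanks was 5.62. With summits within 100 bp the density was 4.87 per 100 kb, the shares were 56.5% and 43.3%, the spacing 15.7 kb, the fold enrichment 3.48 and the ratio to the flanks 9.74. With −log10 q of at least 5 there were 12 regions (4.50 per 100 kb), spaced 13.8 kb, with a fold enrichment of 3.52. None lay in the flanks, so that no ratio to them could be given. The ratio to the neighbours was 85.0, but it rests on even fewer neighbour regions than the 4 of the main setting. With a fold enrichment of at least 5 no region of CMIP was left, so its count, density and percentile were 0 and its other values could not be given. With the 5000 peaks of lowest p there were 6 regions (2.25 per 100 kb, percentile 99.6), spaced 39.2 kb, with a fold enrichment of 3.52 and 60.0% of replicate 1 peaks shared; no flank or neighbour held a region. From either library alone the number of peaks was 23 to 29, the density 8.62 to 10.9 per 100 kb, the percentile 99.8 to 99.9, the spacing 6.86 to 6.98 kb, the fold enrichment 3.16 to 3.28, the ratio to the flanks 7.24 to 8.62 and the ratio to the neighbours 20.5 to 27.2. Merging summits within 1 kb gave 18 regions spaced 11.5 kb. Flanks of 50 kb gave a ratio of 3.56 and flanks of 200 kb a ratio of 14.2, since both flank regions lie within 50 kb of the gene. The percentile was 99.6 among genes of at least 50 kb and 98.7 among those of chromosome 16. The causes of the other moves were not tested. No paired analysis was possible because there is 1 group of samples.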
